A study of Mus musculus with 60 samples.

Results

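The 10 genes described here take part in glycolysis or in the transcriptional response to low oxygen: Hif1a, Vegfa, Ddit4, Bnip3, Slc2a1, Hk2, Pfkfb3, Aldoa, Pgk1 and Ldha. They were chosen by symbol from a table of 24411 genes, all 10 were in it, and 8 of them were among the 9001 genes abundant enough to be tested. They were measured in Kupffer cells (liver macrophages) of 15 C57BL/6J mice in 3 groups of 5. One group was wild type and received corn oil, one was wild type and received the liver toxin carbon tetrachloride (CCl4), and one was Trem1-deficient and received CCl4. All mice were labelled male, were 8 weeks old and were killed 12 h after a single injection. CCl4 was given at 2 µl/g in a 1:4 dilution with corn oil. The comparisons ask how the genes differ after CCl4 in wild-type mice, and how Trem1 deficiency, loss of an activating receptor of myeloid cells, bears on that. No Trem1-deficient mice given oil are among these samples, and the labels do not say in which cells Trem1 was lost or how. The cells had been depleted of CD11b-binding cells and then collected with F4/80 beads.

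Ddit4 was the member with a called increase after CCl4 in wild-type mice, from a mean of 71.3 to 247 CPM (a gene's counts per 1e6 in its library, scaled by the trimmed mean of M values, TMM). It stood at 283 CPM in Trem1-deficient mice given CCl4. Vegfa stood at 41.8 CPM after oil, 151 CPM after CCl4 in wild type and 29.5 CPM after CCl4 in Trem1-deficient mice, and its difference between the genotypes was called. The other 6 tested members passed the threshold in 0 of the 3 comparisons by edgeR's quasi-likelihood test with Benjamini-Hochberg adjustment (adjusted p under 0.05 over all 9001 genes). With the series of library index numbers, described below, as a term, 0 members were called in each comparison. Within wild type that series coincides with the treatment.

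In glycolysis, glucose enters through a transporter, is phosphorylated by a hexokinase, split by aldolase and turned into pyruvate, which lactate dehydrogenase can reduce to lactate. Hypoxia-inducible factor (HIF), a dimer of an oxygen-regulated alpha subunit and the constant subunit Arnt, binds a short core motif near many of these genes and raises their transcription when oxygen is low. In macrophages the same genes are also known to respond to inflammatory stimuli, and Vegfa and Ddit4 have other inducers besides HIF.

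The sequences before the starts of Vegfa and Ddit4 are shown because these were the 2 members past the threshold in a comparison. They are RefSeq promoter sequences on GRCm38.p6, printed 5′ to 3′ on the minus strand, on which both genes lie. Capitals mark matches to the HIF core motifs ACGTG and GCGTG, searched on both strands. The Ddit4 stretch is chr10:59951835-59952020 and the Vegfa stretch is chr17:46032378-46032627.
Ddit4: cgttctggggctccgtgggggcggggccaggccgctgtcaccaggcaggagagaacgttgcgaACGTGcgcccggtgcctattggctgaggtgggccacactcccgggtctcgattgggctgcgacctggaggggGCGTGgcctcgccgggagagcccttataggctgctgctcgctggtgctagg
Vegfa: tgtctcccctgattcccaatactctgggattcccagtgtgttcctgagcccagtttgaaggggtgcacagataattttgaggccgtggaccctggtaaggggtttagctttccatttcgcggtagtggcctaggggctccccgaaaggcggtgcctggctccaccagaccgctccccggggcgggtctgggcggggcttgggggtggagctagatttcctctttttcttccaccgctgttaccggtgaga
Of the 250 bases before the RefSeq start of Ddit4, 186 are printed, since the 64 nearest the start lie inside an annotated transcript. ACGTG lay 187 to 183 bases before that start and GCGTG 115 to 111 bases before it. The Vegfa stretch held 0 matches, which says only that these letters are not in this window. A second RefSeq window of Vegfa, for a start inside the gene, held 2 matches and is not printed. Among 32851 windows of all genes, 38.6% held at least 1 match of either motif, 16.7% held 2 or more, and 16.6% held ACGTG. Of the 15 windows of the 10 members, 13 held at least 1 match. A match is a description of letters, and binding was not measured.

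The libraries held 812320 to 2593004 gene counts each. A gene without a count could therefore have a TMM-scaled level of up to 0.988 to 4.09 CPM (3 counts), a limit for counting error only. Trem1 had 35 to 100 counts per library after oil, 167 to 578 after CCl4 in wild type and 2 to 25 in Trem1-deficient mice, in the direction of the labels. The library index numbers in the labels fall into 2 series, each with steps of 12. One held all 5 oil mice and Trem1-deficient mice 1 and 2, the other Trem1-deficient mice 3 to 5 and all 5 wild-type CCl4 mice. Every library of the first series had 72 or more counts of Xist, the transcript of the inactive X chromosome of females, and at most 7 of Y-linked transcripts. Every library of the second had at most 31 of Xist and at least 134 of Y-linked ones, although the labels name all mice male. Within wild type the treatment and the index series coincide and cannot be told apart. Each call below from the TMM-scaled edgeR fit of 9001 genes in all 15 mice is given also with the series as a term or within 1 series. The 13 Kupffer cell markers were detected in every group. Their sum was 59240 CPM of the library after oil (range 30970 to 75450), 9419 after CCl4 in wild type (5222 to 17620) and 59570 in Trem1-deficient mice (53980 to 69240), so libraries labelled Kupffer cells from wild-type CCl4 mice held far less of the defining transcripts. In such bulk samples, fewer cells of a type and less RNA per cell cannot be told apart.

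**Figure D1:**
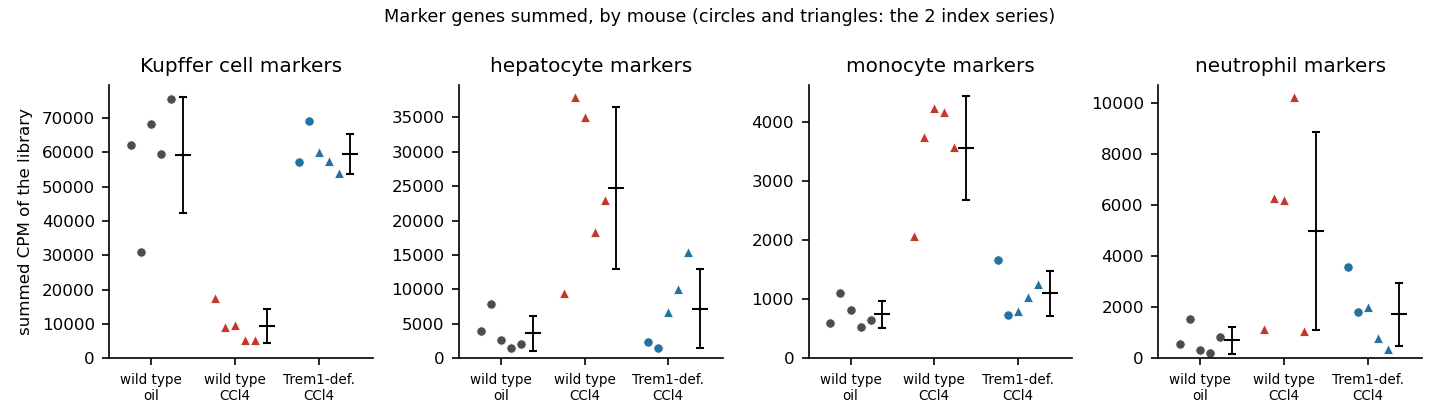
Summed levels of marker genes of 4 cell types (vertical axes, CPM of the library) in each of 5 mice per group; circles and triangles are the 2 index series, and the bar is the mean with the SD. Kupffer cell markers sit at 5222 to 17620 CPM in the 5 wild-type CCl4 mice, below every mouse of the other groups, and monocyte markers in those mice, at 2060 to 4224 CPM, sit above every other mouse.

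Hif1a encodes the oxygen-regulated alpha subunit of HIF-1. After oil its level was 62.0, 69.1, 59.8, 71.9 and 22.1 CPM in mice 1 to 5. After CCl4 in wild type it was 140, 183, 194, 388 and 5.45 CPM, and in Trem1-deficient mice 94.2, 41.4, 75.4, 67.6 and 43.3 CPM. Wild-type CCl4 mice 1 to 4 lay above all other mice and mouse 5 lay below all of them, so the groups overlapped. Mouse 5 had 4 Hif1a counts, in the shallowest library of the series (812320 gene counts). The log2 fold change was 1.68 ± 0.60 (SE) for wild-type CCl4 against oil (edgeR adjusted p = 0.101) and -1.50 ± 0.59 for Trem1-deficient against wild type after CCl4 (adjusted p = 0.205). Without wild-type CCl4 mouse 5 the same differences were 1.97 (edgeR adjusted p = 0.00504) and -1.78 (adjusted p = 0.0207), and both passed the threshold. That mouse was left out in turn like every other. With all mice and no low-count filter the first difference passed as well (edgeR adjusted p = 0.0295), and the second did not. With the index series as a term and all mice the 2 differences were 1.81 ± 1.04 (edgeR adjusted p = 0.847) and -1.55 ± 0.73 (adjusted p = 0.413). Between Trem1-deficient CCl4 mice and oil mice the difference was 0.18 ± 0.59, and it was -0.03 without oil mouse 5.

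Vegfa encodes a secreted growth factor for endothelial cells. Its gene lies at chr17:46016993-46032369 on the minus strand of GRCm38 and no other annotated gene overlaps it. After oil its level was 37.0, 70.3, 42.2, 36.9 and 22.6 CPM in mice 1 to 5. After CCl4 it was 166, 179, 149, 86.9 and 173 CPM in wild-type mice and 14.8, 13.7, 78.0, 23.3 and 17.9 CPM in Trem1-deficient mice. Every wild-type CCl4 mouse lay above every mouse of both other groups, while the oil and Trem1-deficient groups overlapped. The lowest wild-type CCl4 mouse, mouse 4, and the highest Trem1-deficient mouse, mouse 3, were 86.9 and 78.0 CPM, close to each other.

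Ddit4 encodes an inhibitor of mTORC1 signalling that is induced by several stresses, low oxygen and glucocorticoids among them. Its gene has 3 exons at chr10:59949669-59951834 on the minus strand of GRCm38, with no overlapping annotated gene. After oil its level was 42.6, 121, 53.5, 51.1 and 88.5 CPM. After CCl4 it was 242, 221, 167, 263 and 344 CPM in wild-type mice and 149, 372, 283, 212 and 400 CPM in Trem1-deficient mice. All 10 mice given CCl4 lay above all 5 given oil, the nearest being oil mouse 2 at 121 CPM and Trem1-deficient mouse 1 at 149 CPM. The 2 CCl4 groups overlapped over most of their range.

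**Figure D2:**
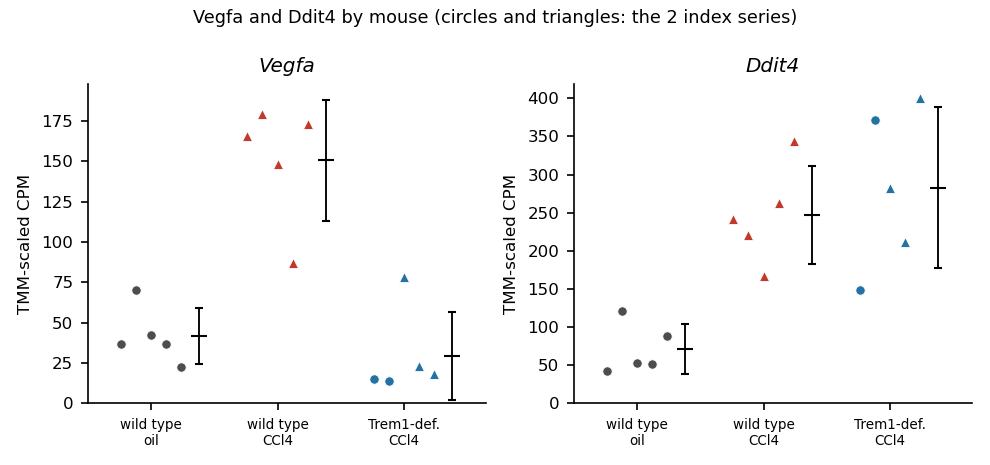
Level of Vegfa and Ddit4 (vertical axes, TMM-scaled CPM) in each of 5 mice per group; circles and triangles are the 2 index series, and the bar is the mean with the SD. For Vegfa the wild-type CCl4 mice sit at 86.9 to 179 CPM, above all others, and for Ddit4 both CCl4 groups sit above the oil mice, at 149 CPM or more.

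Bnip3, which encodes a mitochondrial outer membrane protein that promotes mitophagy, did not pass the filter on low counts. It had 0, 0, 8, 0 and 24 counts in oil mice 1 to 5. It had 4, 0, 2, 103 and 35 counts in wild-type CCl4 mice and 4, 1, 2, 4 and 60 in Trem1-deficient mice. The counts rested on wild-type CCl4 mice 4 and 5 and Trem1-deficient mouse 5, while the other mice given CCl4 had at most 4. The last 300 bases of the longest coding Bnip3 transcript matched transcripts of 2 other annotated genes, searched over their whole length on both strands. Bnip3 also overlaps 2 annotated genes on the other strand, and whether these are the same genes was not checked. Any effect on its counts was not tested. Bnip3l, a relative of Bnip3, had 30.8 ± 23.4 CPM (SD, n = 5) after oil, 4.97 ± 6.54 after CCl4 in wild type and 16.4 ± 14.3 in Trem1-deficient mice.

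Slc2a1 encodes GLUT1, the glucose transporter of most non-hepatocyte cells. After oil it was 8.33, 37.0, 9.86, 13.2 and 11.3 CPM. After CCl4 it was 31.4, 13.9, 75.2, 71.6 and 0 CPM in wild-type mice and 13.2, 11.4, 11.1, 6.44 and 31.8 CPM in Trem1-deficient mice. Wild-type CCl4 mice 3 and 4 were high and mouse 5 had 0 counts, which in its library allows up to 4.09 CPM, and the 3 groups overlapped. The differences were 1.28 ± 0.98 for wild-type CCl4 against oil (edgeR adjusted p = 0.534) and -1.38 ± 0.98 for Trem1-deficient against wild type after CCl4 (adjusted p = 0.544). Slc2a3, another glucose transporter gene, stood at 8.73 ± 4.99, 40.4 ± 54.8 and 14.8 ± 10.4 CPM in the oil, wild-type CCl4 and Trem1-deficient groups. The middle value rested on mice spread from 4.09 to 136 CPM.

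Hk2 encodes hexokinase 2, which phosphorylates glucose. Its level was 398, 353, 396, 415 and 343 CPM after oil, the tightest of the tested members in any group, with a coefficient of variation of 8.21%. After CCl4 it was 280, 256, 247, 283 and 155 CPM in wild-type mice and 414, 238, 491, 466 and 524 CPM in Trem1-deficient mice. All 5 wild-type CCl4 mice lay below all 5 oil mice, and Trem1-deficient mouse 2 lay among the wild-type CCl4 mice. The differences were -0.64 ± 0.29 for wild-type CCl4 against oil (edgeR adjusted p = 0.220) and 0.80 ± 0.29 for Trem1-deficient against wild type (adjusted p = 0.153). With the index series as a term the first was -1.24 ± 0.52 (edgeR adjusted p = 0.601). With library size alone as the scaling, the second was 1.08 (edgeR adjusted p = 0.034), where the median of all tested genes stood at 0.27. Of its relatives, Hk1 had means of 80.9, 31.7 and 77.0 CPM in the oil, wild-type CCl4 and Trem1-deficient groups, and Hk3, a myeloid hexokinase, had means of 39.6, 1.49 and 17.4 CPM. Hk3 was lower in wild-type CCl4 mice than in oil mice, a log2 fold change of -4.57 ± 1.14 (edgeR adjusted p = 0.0140), and every wild-type CCl4 mouse was below every oil mouse. With the index series as a term the Hk3 difference was -3.73 (edgeR adjusted p = 0.756), and without wild-type CCl4 mouse 1 it was -6.32. For Hk1 the same difference was -1.34 ± 0.73 (edgeR adjusted p = 0.332).

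Pfkfb3 makes fructose 2,6-bisphosphate, the activator of phosphofructokinase. After oil it was 38.9, 34.5, 24.6, 47.3 and 31.1 CPM. After CCl4 it was 24.9, 68.4, 82.8, 36.1 and 153 CPM in wild-type mice and 29.6, 23.4, 34.7, 31.4 and 99.3 CPM in Trem1-deficient mice. Mouse 5 of each CCl4 group was the highest of its group and all groups overlapped. The difference was 1.04 ± 0.64 for wild-type CCl4 against oil and -0.74 ± 0.64 for Trem1-deficient against wild type (edgeR adjusted p = 0.408 and 0.642). Pfkfb4, a related enzyme, had means of 49.6, 69.3 and 26.5 CPM in the oil, wild-type CCl4 and Trem1-deficient groups, with differences of 0.49 ± 0.81 and -1.39 ± 0.82 in the same order.

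Aldoa encodes the aldolase of most tissues. Its level was 69.4, 116, 108, 88.9 and 59.8 CPM after oil, 90.4, 107, 151, 137 and 305 CPM in wild-type CCl4 mice, and 104, 115, 124, 98.1 and 76.8 CPM in Trem1-deficient mice. Wild-type CCl4 mice 1 and 2 lay within the oil range and mouse 5 was the highest of all 15. The differences were 0.83 ± 0.42 for wild-type CCl4 against oil and -0.61 ± 0.42 for Trem1-deficient against wild type (edgeR adjusted p = 0.284 and 0.528). Ldha, a subunit of lactate dehydrogenase, was 64.8, 281, 42.2, 59.6 and 38.1 CPM after oil, 75.3, 201, 88.4, 88.6 and 96.8 CPM in wild-type CCl4 mice, and 67.8, 47.4, 87, 66.0 and 94.7 CPM in Trem1-deficient mice. Mouse 2 was the highest of the oil group and mouse 2 the highest of the wild-type CCl4 group, and the groups overlapped. The Ldha differences were 0.19 ± 0.53 and -0.60 ± 0.53 (edgeR adjusted p = 0.903 and 0.651). Without wild-type CCl4 mouse 2, oil mouse 3 or oil mouse 5 the first was -0.15, -0.01 and -0.02, and without oil mouse 2 it was 1.1 ± 0.48 (edgeR adjusted p = 0.200).

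Pgk1, phosphoglycerate kinase, could not be read in these libraries: it had 12 counts over all 15 mice, 4 after oil, 0 after CCl4 in wild type and 8 in Trem1-deficient mice. Other enzymes that glycolytic cells carry were as low, with 0 counts of Eno1, 10 of Pgam1 and 44 of Gapdh over all 15 mice. Against the annotation, the last 300 bases of the longest coding Gapdh transcript matched 120 other genes, 116 of them pseudogenes, and those of Eno1 matched 1, at 95% identity or more over at least 100 bases. Pgk1 and Pgam1 matched 0 other genes. The part of such copies in the low counts was not tested. By contrast Pkm, which encodes the pyruvate kinase of macrophages, had 5357 counts over all mice.

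**Figure D3:**
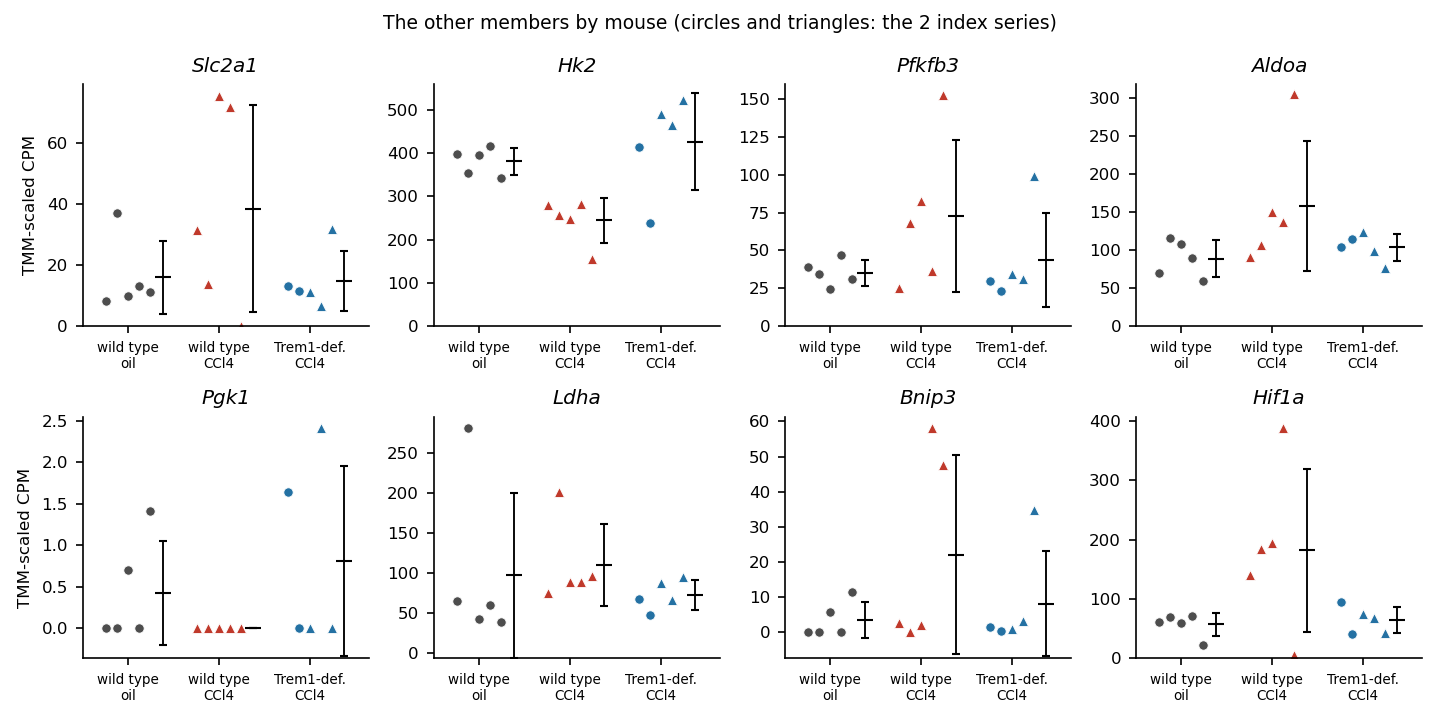
Level of the 8 members other than Vegfa and Ddit4 (vertical axes, TMM-scaled CPM, each panel on its own scale) in each of 5 mice per group; circles and triangles are the 2 index series, and the bar is the mean with the SD. Only in the Hk2 panel do the wild-type CCl4 mice, at 155 to 283 CPM, sit apart from the oil mice, at 343 to 415 CPM; Pgk1 stays at or below 2.41 CPM.

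For wild-type CCl4 against oil, Ddit4 rose by 1.79 ± 0.38 on the log2 scale (edgeR adjusted p = 0.00351), 3.47-fold in mean level, higher in 5 of 5 mice. Vegfa was 3.61-fold higher in mean level, a log2 fold change of 1.85 ± 0.57, also in 5 of 5 mice, and lay just outside the threshold (edgeR adjusted p = 0.0514). Thus 1 of the 8 tested members was called, where 5.13% of all tested genes were, and 3 members (Ddit4, Hk2 and Vegfa) had groups that did not overlap, where 6.58% of all tested genes did. The fitted difference was positive in 7 of 8 members, with a median of 1.16 against 0.06 over all tested genes. The members were chosen with earlier results of these data known. The values over all genes, here and in the comparisons below, are therefore background and no test of the set. Vegfa passed with DESeq2 (adjusted p = 0.00488), with RLE size factors (edgeR adjusted p = 0.0438) and without oil mouse 2 (adjusted p = 0.0271), wild-type CCl4 mouse 4 (adjusted p = 0.0456) or Trem1-deficient mouse 3 (adjusted p = 0.0403). With the index series as a term, which the Trem1-deficient mice of both series make possible, Vegfa differed by 0.37 ± 0.97 (edgeR adjusted p = 1) and Ddit4 by 1.60 ± 0.66 (adjusted p = 0.587), and 0 members were called. Hepatocyte markers, 12 of 13 detected with Ass1 at 0, summed to 1504 to 7824 CPM of the library after oil and 9420 to 37930 after CCl4 in wild type. Monocyte markers (9 of 9 detected) summed to 525 to 1111 and 2060 to 4224 CPM, and neutrophil markers (9 of 10 in the table, all detected) to 226 to 1533 and 1086 to 10220 CPM. The part of these and of the fall in Kupffer cell markers in the Vegfa and Ddit4 values was not tested.

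For Trem1-deficient against wild-type mice, both after CCl4, Vegfa fell by 2.35 ± 0.57 on the log2 scale (edgeR adjusted p = 0.0250), to 0.197 of the wild-type mean, in 5 of 5 mice. It was the 1 member called of 8, where 2.06% of all tested genes were, and the 1 member whose groups did not overlap, where 5.54% of all tested genes did. Ddit4 differed by 0.20 ± 0.37 (edgeR adjusted p = 0.862). The difference was negative in 6 of 8 members, with a median of -0.67 against -0.03 over all tested genes. The wild-type CCl4 mice are shared with the comparison above, so opposite signs in the 2 comparisons are not independent. Among the mice of 1 index series (Trem1-deficient mice 3 to 5 against wild-type CCl4 mice), Vegfa differed by -1.90 ± 0.69 (edgeR adjusted p = 0.292), and with the series as a term by -1.91 ± 0.68 (adjusted p = 0.207). The Vegfa call was also lost without Trem1-deficient mouse 1, 2, 4 or 5 (edgeR adjusted p = 0.0844, 0.0952, 0.0786 and 0.0600) and without wild-type CCl4 mouse 2 or 3 (adjusted p = 0.0565 and 0.0534), at differences of -2.35 to -2.14. In Trem1-deficient mice hepatocyte markers summed to 1494 to 15410 CPM of the library, monocyte markers to 727 to 1667 and neutrophil markers to 356 to 3565, and their part in the Vegfa value was not tested. In wild-type CCl4 mice the hepatocyte markers summed to 9420 to 37930 CPM. Among Trem1-deficient mice, mouse 5 had the highest such sum, 15410 CPM, and 17.9 CPM of Vegfa. Mouse 3, with the most Vegfa of that group, had 6749 CPM of these markers. Values within 1 group do not bear on the difference between the genotypes.

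For Trem1-deficient CCl4 mice against wild-type oil mice, a comparison that shares its groups with the other two, Ddit4 rose by 1.99 ± 0.38 on the log2 scale (edgeR adjusted p = 0.0107), 3.97-fold in mean level, in 5 of 5 mice. It was the 1 member called of 8, where 0.233% of all tested genes were, and the 1 whose groups did not overlap, where 2.90% of all tested genes did. Vegfa differed by -0.49 ± 0.55 (edgeR adjusted p = 1). It differed by -1.26 without Trem1-deficient mouse 3, by -1.54 with the index series as a term and by -1.52 within 1 series, none of them called (edgeR adjusted p of 0.949 to 1). The 6 others differed by -0.41 (Ldha) to 0.31 (Pfkfb3), each with an edgeR adjusted p of 1, and of these only Aldoa kept its sign under every alternative tried. The median of the 8 members was 0.17 against 0.02 over all tested genes. Kupffer cell markers summed to a mean of 59570 CPM of the library against 59240 in oil mice. The other marker sums were not all alike: hepatocyte markers had means of 7232 against 3623 CPM, neutrophil markers 1716 against 700.0, monocyte markers 1097 against 742 and sinusoidal endothelial markers (10 of 10 detected) 2271 against 1237, each with overlapping ranges. Cholangiocyte markers (4 of 5 detected, Krt7 at 0) were at 21.6 to 40.0 against 1.93 to 13.5 CPM, without overlap. The part of these cell types in the Ddit4 value was not tested. Within 1 index series (Trem1-deficient mice 1 and 2 against oil mice), Ddit4 differed by 1.90 ± 0.46 (edgeR adjusted p = 0.147), and with the series as a term by 1.87 ± 0.47 (adjusted p = 0.124). The call was also lost without Trem1-deficient mouse 5 (edgeR adjusted p = 0.0572) or oil mouse 1, 3 or 4 (adjusted p = 0.0606, 0.0579 and 0.0673), at differences of 1.83 to 1.90.

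**Figure D4:**
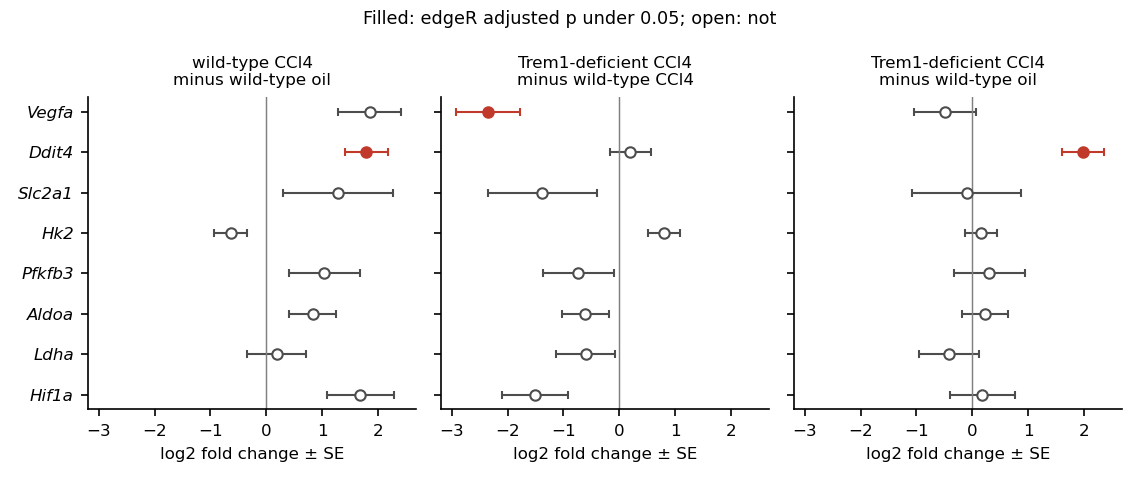
Log2 fold change with its standard error (horizontal axes) of the 8 tested members in the 3 comparisons, from 1 edgeR fit; filled points have an adjusted p under 0.05. Ddit4 is filled at 1.79 and 1.99 in the comparisons with oil, and Vegfa at -2.35 in the comparison of genotypes.

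As background to the lists that follow, edgeR called 5.13%, 2.06% and 0.233% of all tested genes in the 3 comparisons, in the order given above. DESeq2 called 1101, 668 and 79 genes, against 462, 185 and 21 by edgeR. The edgeR shares are therefore too low a background for the DESeq2 calls named below. The number of genes that DESeq2 tested was not counted, so its shares are not given. The share of all genes at an unadjusted p under 0.05 was not counted. Around the members, the other glycolysis and lactate genes (22 listed, 14 tested) had 1 called gene after CCl4 in wild type, Hk3, which was lower, with 5 at an unadjusted p under 0.05. There DESeq2 called 3: Hk3, the lactate exporter gene Slc16a3, at 42.3 CPM after oil and 228 after CCl4, and Tigar. Tigar did not pass edgeR's filter, with 0 counts in all oil mice, 68 in wild-type CCl4 mice and 85 in Trem1-deficient mice. By edgeR 0 were called in the other 2 comparisons, with 3 and 0 at an unadjusted p under 0.05, where DESeq2 called 2 (Hk3 and Slc16a3) and 1 (Tigar). Their median log2 fold change was 0.77 for wild-type CCl4 against oil and -0.80 for Trem1-deficient against wild type, with 11 of 14 positive and 10 of 14 negative. Both comparisons use the same wild-type CCl4 mice, so opposite signs in them are not independent. Of the other hypoxia-inducible genes (30 listed, 22 tested), edgeR called 3 after CCl4 in wild type, all higher, with 6 at an unadjusted p under 0.05. DESeq2 called these 3 and 2 more: Rora, at 45.4 CPM after oil and 136 after CCl4 with no overlap, and Bnip3l, which was lower, at 30.8 and 4.97 CPM. The 3 were Plin2, which coats lipid droplets, from 120 to 432 CPM, Cxcr4, a chemokine receptor of many leukocytes, from 31.8 to 235 CPM, and Ndrg1, a stress-responsive gene, from 24.5 to 112 CPM. Their log2 fold changes were 1.84 ± 0.36, 2.89 ± 0.60 and 2.20 ± 0.65 (edgeR adjusted p = 0.00159, 0.00288 and 0.0448). With the index series as a term none of the 3 passed (1.47, 3.06 and 3.35, edgeR adjusted p = 0.601, 0.317 and 0.327). Ndrg1 lay so close to the threshold that leaving out any of 11 single mice lost its call (oil mouse 1, 3, 4 or 5, wild-type CCl4 mouse 2, 3 or 4, Trem1-deficient mouse 1, 2, 3 or 5), at differences of 1.92 to 2.34. Its call was lost too with library size alone, upper quartile factors, only the 2 groups or the mouse number as a block (edgeR adjusted p = 0.0587, 0.0658, 0.0815 and 0.0822). Cxcr4 rested in part on wild-type CCl4 mouse 5, at 663 CPM against a group median of 169 CPM, and without it the difference was 1.98 (edgeR adjusted p = 0.0286). The list as a whole had a median of 0.14, with 13 of 22 positive. Cxcr4 was also the 1 gene of this list called between the genotypes, where it fell by 2.40 ± 0.58 on the log2 scale (edgeR adjusted p = 0.0244) to 44.4 CPM in Trem1-deficient mice. That call was lost within 1 index series (-2.46, edgeR adjusted p = 0.132), with the series as a term (-2.47, adjusted p = 0.116) and without wild-type CCl4 mouse 5 (-1.49, adjusted p = 0.146) or Trem1-deficient mouse 1, 2, 3 or 4 (adjusted p = 0.0698, 0.0593, 0.0753 and 0.0639). It was lost too with upper quartile factors (-2.01, edgeR adjusted p = 0.0526) and with the mouse number as a block (-1.92, adjusted p = 0.0705). Cxcr4 is borne by neutrophils and monocytes as well, whose markers moved the same way, and their part in it was not tested. Between Trem1-deficient CCl4 mice and oil mice edgeR called 0 genes of this list, with 1 at an unadjusted p under 0.05, and DESeq2 called 0.

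Among oxygen-sensing genes and the other HIF subunits (13 listed, 11 tested), edgeR called 0 in each of the 3 comparisons, in the order given above, with 2, 3 and 0 at an unadjusted p under 0.05. DESeq2 called Rbx1 and Vhl in the first and Hif1an in the second. Epas1, the HIF-2 alpha subunit, was 62.6 ± 12.9, 87.7 ± 58.1 and 74.9 ± 28.2 CPM in the oil, wild-type CCl4 and Trem1-deficient groups, and Arnt 27.8 ± 19.7, 33.4 ± 26.2 and 38.6 ± 12.7 CPM (SD, n = 5). Genes of pyruvate entry into mitochondria (14 listed, 12 tested) had 0 calls in all 3 comparisons by either tool, with 1, 0 and 0 at an unadjusted p under 0.05 by edgeR. The 8 pentose phosphate genes, all tested, had 0 calls by edgeR, with 1, 2 and 0 at an unadjusted p under 0.05, and DESeq2 called G6pdx in the first and second. The genes that DESeq2 alone called were named after their values were seen.

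The VEGF ligands and receptors other than Vegfa (9 listed, 6 tested) had 0 calls by either tool, with 0, 0 and 2 at an unadjusted p under 0.05 by edgeR. Between the genotypes after CCl4 the fitted difference was positive in all 6 tested genes of that list (median 0.82), while that of Vegfa was -2.35. The list holds receptors of endothelial cells, whose sinusoidal markers summed to 1025 CPM of the library in wild type (range 804 to 1247) and 2271 in Trem1-deficient mice (1029 to 3719). Kdr is in both the list and these markers, so the marker sum holds a gene of the list. The part of endothelial cells in the list's values was not tested. Genes beside Ddit4 in mTORC1 control (12 listed, 11 tested) had 0 calls by either tool and 0 at an unadjusted p under 0.05 by edgeR in each comparison. Aldoc and Ldhb, with 39 and 72 counts over all mice, were not tested.

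**Figure D5:**
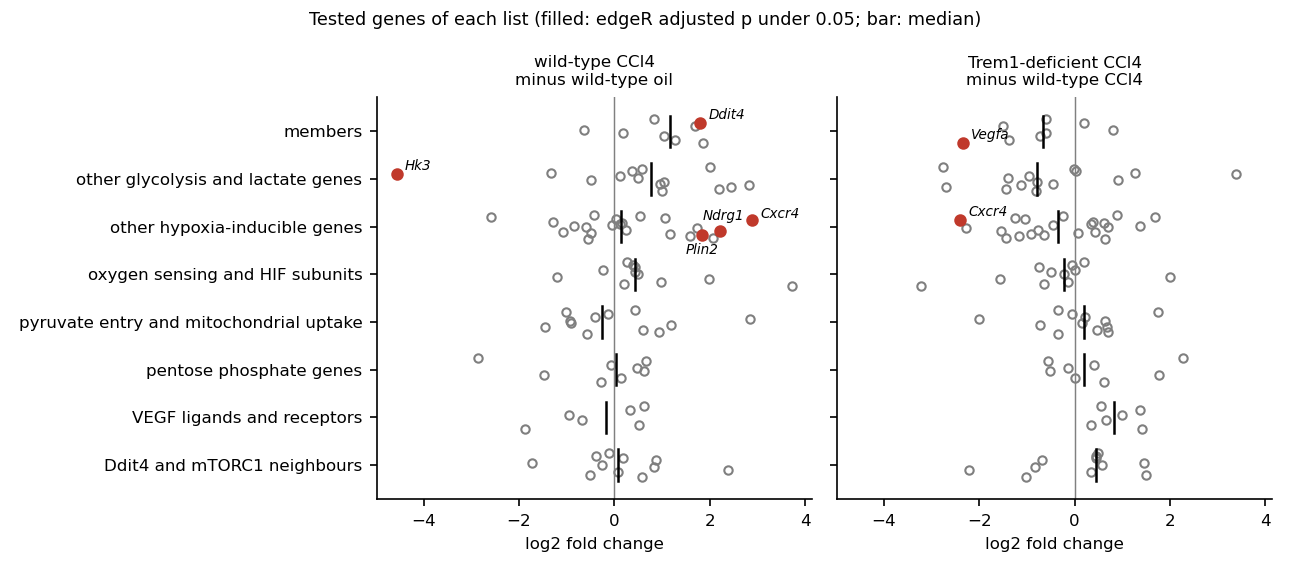
Log2 fold change (horizontal axes) of each tested gene in the members and the 7 neighbouring lists, for wild-type CCl4 against oil and for Trem1-deficient against wild type after CCl4; filled points have an edgeR adjusted p under 0.05 and the bar is the list's median. Outside the members, the filled points are Hk3, Plin2, Cxcr4 and Ndrg1 in the first comparison and Cxcr4 in the second.

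The genes whose pattern over the 15 mice was nearest to that of a member were sought among the 7810 tested genes that averaged at least 10 CPM. The measure was the root mean square difference of log2(CPM + 1), each gene centred on its own mean. The nearest to Vegfa were Sart3 (0.64), Xpa (0.65) and Chd7 (0.70), against a root mean square spread of 1.26 for Vegfa itself. The nearest to Ddit4 were Col13a1 (0.54), Rcl1 (0.60) and Hspa5 (0.60), against a spread of 1.03. For Hk2 they were Msr1 (0.27), Tex261 (0.30) and Lyn (0.31), against 0.46, and for Hif1a they were Cast (0.65), Hcar2 (0.66) and Gnai3 (0.66), against 1.34. In none of these 4 members did another member come among the nearest 3. That says little, since very few of the 7810 genes searched are members. All values of a mouse come from 1 library, so they share its depth and its mix of cells.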

How the data were processed

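RNA from Kupffer cells of 15 mice in 3 groups of 5 was made into 3′ tag libraries (Lexogen QuantSeq), per the labels' protocols. The labels list 60 entries, 4 lanes for each mouse, and the mouse, numbered in the labels, was the replicate. The authors deposited raw counts of reads per gene, 1 column per mouse. The submitters' processing notes name mm10, Trimmomatic, STAR 2.5.1a and Partek 6.6. The annotation, like the strand setting, was not given in the sources used here. Slc2a1, Hk2, Pfkfb3, Aldoa, Bnip3 and Hif1a overlap annotated genes on the other strand. Without the strand setting, it is not known whether the counting kept their reads apart. Slc2a1, Pfkfb3 and Hif1a also overlap annotated genes on the same strand. Overlap was taken over whole genes, not over the 3′ ends. The 4 tallies of unassigned reads stayed out of all sums, and 12.6 to 28.8% of reads were in genes. Every pair of libraries in a group differed by more than sampling noise (lowest chi-square per degree of freedom 10.8).

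Tests used edgeR 4.0.16 (R 4.3.3) with TMM, filterByExpr, and the robust quasi-likelihood F-test (two-sided) on 1 fit of all 15 mice with 12 residual degrees of freedom. P-values were adjusted by Benjamini-Hochberg over 9001 genes, with 0.05 as the threshold. The code was tested on simulated data. Levels are TMM-scaled CPM, and marker sums are CPM of the library total. Positions are from GENCODE on GRCm38, the assembly of mm10, and promoters from RefSeq. A mouse counted as on a side by its level against the other group's mean. Alternatives were RLE, upper quartile or no scaling factors, DESeq2 1.42.0, no low-count filter, a mean of 5 CPM, only the 2 groups compared, the mouse number as a block, the index series as a term or within 1 series, and leaving out each mouse. Named were the 10 members, the called genes of each list, isoform partners of members, and the 3 genes most like a member. The members and lists were chosen with earlier results of these data known. One further list of the plan is not reported here.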

Additional observations from a re-analysis of the deposited data

Results flagged for a closer look

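Of 29 combinations of a gene and a group of 5 mice, 10 held 1 mouse whose gap to the nearest other was over Dixon's 95% critical value. For independent, normally distributed values chance flags about 1 in 20. These were CPM without a log, and the genes share their libraries, so that rate need not hold here. Mouse 5 of the Trem1-deficient group stood high in Slc2a1 (31.75 CPM), Pfkfb3 (99.3 CPM) and Bnip3 (34.64 CPM), 3 genes of glucose use and mitophagy. Mouse 5 of the wild-type CCl4 group, the shallowest library, was low in Hk2 (155.4 CPM) and high in Aldoa (305.4 CPM). Mouse 2 of the oil group was high in Slc2a1 (37.01 CPM) and Ldha (281.3 CPM). It was also the oil mouse with the lowest Kupffer cell marker sum (30970 CPM of the library) and the highest hepatocyte marker sum (7824 CPM), whose part in these values was not tested. Trem1-deficient mouse 5 (15410 CPM) and wild-type CCl4 mouse 2 (37930 CPM) likewise had the highest hepatocyte marker sums of their groups. The other flagged mice did not, and the part of these sums in the flags was not tested. Single further flags were Ldha in wild-type CCl4 mouse 2 (201.2 CPM), Hif1a in oil mouse 5 (22.13 CPM) and Vegfa in Trem1-deficient mouse 3 (77.98 CPM, against 13.69 to 23.33 CPM in the other 4). Without that last mouse the Vegfa difference between the genotypes was -3.11.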

How the results depend on the processing

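The number of members called for wild-type CCl4 against oil, 1, was 2 with DESeq2 and with RLE size factors (Ddit4 and Vegfa), 2 without a low-count filter (Ddit4 and Hif1a) and 0 with the index series as a term, and 1 to 2 when single mice were left out. Between the genotypes after CCl4, 1 became 2 with library size alone (Hk2 and Vegfa), 0 with the index series as a term, 0 within 1 series, and 0 to 2 with single mice left out. For Trem1-deficient CCl4 against oil, 1 became 0 with the index series as a term, 0 within 1 series, and 0 to 1 with single mice left out. The fits with the index series or within it have fewer mice or fewer degrees of freedom for the difference, and the part of that in the lost calls was not tested. With the mouse number as a replicate block the counts were 1, 1 and 1. The numbers did not pair the mice (correlations of same-numbered deviations of -0.0585 to 0.0386).

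Sign changes concerned differences that were not called. For wild-type CCl4 against oil the index series as a term gave -0.0125 for Pfkfb3 and -0.33 for Ldha, and Ldha ran from -0.15 to 1.1 with single mice left out. For Trem1-deficient CCl4 against oil, Slc2a1 was 0.0483 with library size alone, 0.0233 with the block, 0.042 with upper quartile factors and -0.59 to 0.46 with single mice left out. In the same comparison Hk2 was -0.23 with the index series as a term and -0.21 within 1 series, and Pfkfb3 -0.41, -0.39 and, with single mice left out, -0.25 to 0.46. Ldha was 0.0573 with the block and -0.62 to 0.51 with single mice left out, and Hif1a -0.0254 to 0.30. The cause was not tested. Of 589 refitted differences of members, 547 kept sign and side of the threshold, 15 lost and 9 gained a call, and 18 changed sign. DESeq2 gave no adjusted p for Ldha.

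Over all genes, the calls (462, 185 and 21) were 1101, 668 and 79 with DESeq2, 813, 563 and 73 without a filter, and 37, 77 and 11 with the index series as a term. With library size alone the genotypes gave 310, and within 1 series 57. The share of higher calls moved from 59.3% to 40.6% with library size alone and 48.1% with upper quartile factors for wild-type CCl4 against oil, and from 37.8% to 69.4% and 54.4% between the genotypes, where the median of all genes moved to 0.27 and 0.16. Single mice left out gave 302 to 759, 88 to 508 and 12 to 31 calls. The wide spread between mice (biological coefficient of variation 0.888) limits what 5 mice a group can show.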
